A study of Mus musculus with 4 samples.

Results

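The genes described here are Foxa1, Foxa2, Foxq1, Gata2, Gata3, Grhl2, Elf3, Ehf and Klf5, transcription factors of the forkhead, GATA, grainyhead, ETS and Krüppel-like families that are known for roles in epithelial cells. They were chosen by name and are 9 of the 31053 genes counted in each matrix. Their mRNA was followed in the adult mouse prostate by lobe, by activity of a Runx1 reporter, by castration and by basal or luminal cell class, and in explants of the embryonic urogenital sinus by day of culture.

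Forkhead factors of the FOXA group and GATA factors can bind their sites in closed chromatin, and FOXA1 and GATA2 are known to act at enhancers in the prostate. GRHL2, ELF3 and EHF activate genes of epithelial junctions and of differentiated epithelium, and KLF5 is a factor of progenitor and differentiating cells in several glands and in the gut. FOXA2 is known from the budding embryonic prostate and from neuroendocrine cells, GATA3 from breast and bladder epithelium, and FOXQ1 from surface epithelia.

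The adult cells came from ICR (CD-1) mice older than 8 weeks that carried P2-Runx1:RFP, a reporter in which the proximal P2 promoter of Runx1 drives red fluorescent protein (RFP). EPCAM+ cells were sorted as RFP+ or RFP- from 3 lobes of intact mice, namely the anterior prostate (AP), the dorsolateral prostate (DLP) and the ventral prostate (VP), and from mice castrated for more than 4 weeks, in which androgen from the testis is lost. Each of the 3 runs pooled several mice, run 3 held no castrated mice, and in run 1 the lobes of castrated mice were pooled. The explants were urogenital sinuses of ICR (CD-1) embryos at E15.5 cultured with 10 µM dihydrotestosterone, and EPCAM+ cells were taken at days 0, 1, 3 and 6 into 1 library. The RFP gate reports the activity of the Runx1 P2 promoter and not a cell type, and intact DLP RFP+ cells were assigned in run 3 alone. The matrices held 35051876, 86381807 and 40087244 unique molecular identifiers (UMIs, counted mRNA molecules) in runs 1 to 3 and 121090404 in the explant library. Of these cells, 824, 2194, 1673 and 5198 were assigned to 1 sorted population, with a median of 9750 to 14784.5 UMIs per cell.

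Cell classes were set without the 9 genes. Basal-like cells had at least 4 UMIs of Krt5, Krt14 and Trp63 per 10000 and under 5 of Psca and Krt4. Luminal-like cells had under 1 of Krt5, Krt14 and Trp63 and at least 5 of Epcam, Krt8 and Krt18. Both had under 10 of each list of non-epithelial markers. The limit on Psca and Krt4 left out 14, 17 and 3 cells with basal markers in runs 1 to 3. These limits gave 304 basal-like and 357 luminal-like cells in run 1, 662 and 1061 in run 2, and 1079 and 498 in run 3. The UMIs of a class were summed per run and sorted population, a level is given as CPM, the UMIs of a gene for 1000000 UMIs in the sum, and the 3 runs are the replicates. The sums measure mRNA of a class of cells, so fewer expressing cells and less mRNA per cell cannot be told apart in them. Where the sums of 2 groups are said not to overlap, the share of all genes without overlap was not counted. Runx1 itself followed the gate and stood at 103, 148.5 and 115 CPM in AP RFP+ luminal-like sums and at 15, 13 and 4 CPM in the RFP- sums.

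In GRCm38 coordinates the forkhead genes lie at chr12:57540628-57546916 (Foxa1, minus strand), chr2:148042877-148046969 (Foxa2, minus) and chr13:31556134-31560976 (Foxq1, plus). The GATA genes lie at chr6:88193891-88207032 (Gata2, plus) and chr2:9857078-9890034 (Gata3, minus). Elf3 is at chr1:135253575-135258568 (minus), Ehf at chr2:103263433-103303278 (minus), Grhl2 at chr15:37233036-37363569 (plus) and Klf5 at chr14:99298691-99315036 (plus). The promoter table of RefSeq, build GRCm38.p6, held 5 of the 9 genes. The 250 bases before the annotated starts are shown for Gata2 and Gata3, which moved in one direction between the gates of AP luminal-like cells and between the AP and VP RFP- cells, and for Elf3, which moved the other way between the AP gates. The gene spans above come from another annotation, so the windows of Gata3, of the inner start of Gata2 and, in part, of Elf3 lie inside them. They are written 5′ to 3′ on the gene's strand, and capitals mark the searched motifs.
Gata2, start at the 5′-most site, chr6:88193641-88193890, plus strand: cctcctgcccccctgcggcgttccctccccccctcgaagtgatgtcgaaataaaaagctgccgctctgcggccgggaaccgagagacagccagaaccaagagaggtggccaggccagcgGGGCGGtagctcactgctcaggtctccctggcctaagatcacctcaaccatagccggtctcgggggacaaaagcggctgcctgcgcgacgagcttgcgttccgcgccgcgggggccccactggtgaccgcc
Gata2, inner start, chr6:88198414-88198663, plus strand: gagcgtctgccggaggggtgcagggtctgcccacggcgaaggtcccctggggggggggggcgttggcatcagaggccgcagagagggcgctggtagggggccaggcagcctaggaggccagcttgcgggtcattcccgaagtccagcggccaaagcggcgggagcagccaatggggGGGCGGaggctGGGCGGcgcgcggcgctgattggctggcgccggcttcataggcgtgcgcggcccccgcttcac
Gata3, inner start, chr2:9878601-9878850, minus strand: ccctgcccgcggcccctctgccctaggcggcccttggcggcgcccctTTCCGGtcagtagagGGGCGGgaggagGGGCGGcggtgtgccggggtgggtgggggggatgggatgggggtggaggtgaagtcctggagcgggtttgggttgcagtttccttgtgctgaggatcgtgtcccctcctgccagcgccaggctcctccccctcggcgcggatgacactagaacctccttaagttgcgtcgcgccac
Elf3, chr1:135258473-135258722, minus strand: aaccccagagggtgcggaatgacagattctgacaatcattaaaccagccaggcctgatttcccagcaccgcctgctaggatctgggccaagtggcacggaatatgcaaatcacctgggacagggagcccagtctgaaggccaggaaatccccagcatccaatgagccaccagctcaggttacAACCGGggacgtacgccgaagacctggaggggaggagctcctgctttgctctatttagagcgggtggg

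The windows were searched on both strands for TGTTTAC (forkhead), for AGATAA (the GATA family), for CCGGAA (the ETS family), for GGGCGG (Krüppel-like), for AACCGG (grainyhead) and for TGTGGT (the RUNX family). The ETS and grainyhead words share CCGG and can overlap. Among 32851 promoter windows of this length, 3.17%, 9.99%, 12%, 32.7%, 5.62% and 14% held them. The 5′ window of Gata2 held 1 Krüppel-like match and the inner one 2, the Gata3 window 2 Krüppel-like matches and 1 ETS match, and the Elf3 window 1 grainyhead match. The 2 Gata2 windows were 67.2% and 74.0% GC against a median of 52.4% over all windows. A match describes letters, not binding.

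Across all intact cells, Gata2, Elf3 and Ehf were lower in basal-like than in luminal-like cells, and no member passed as higher, apart from Foxa1 when the sums were scaled by total UMIs alone. Gata2 measured 13.7, 3.85 and 3.94 CPM in the basal-like sums of runs 1 to 3 against 80.9, 39.1 and 28.9 CPM in the luminal-like sums. All 3 basal-like values lay below all luminal-like values. Its log2 fold change was -3.34 (SE 0.44, n = 3 runs each, adjusted p = 0.000967 by edgeR's quasi-likelihood test). Ehf stood at 188, 138 and 96.2 CPM against 498, 319 and 265 CPM, again without overlap, with a log2 fold change of -1.91 (SE 0.20, adjusted p = 0.00041). Elf3 stood at 14.7, 11.8 and 9.94 CPM against 81.0, 19.6 and 18.9 CPM, with a log2 fold change of -2.11 (SE 0.43, adjusted p = 0.00586). The run 1 luminal-like sum of Elf3 stood well above the other 2. These 3 calls are set against 44.6% of the 11936 genes tested that passed and 21.8% that passed as lower in basal-like cells, so the share of members called was close to that of all genes.

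The other members tested did not pass. Foxa1 measured 127, 147 and 112 CPM in basal-like and 96.0, 60.5 and 66.1 CPM in luminal-like sums, with a log2 fold change of 0.26 (SE 0.16, adjusted p = 0.224). All 3 basal-like values lay above the luminal-like values. TMM scaling, edgeR's correction for the makeup of the sums, lowered the fold changes of this comparison by 0.56 against plain CPM, and without it the Foxa1 difference was 0.80 with an adjusted p of 0.0296. Klf5 and Foxq1 differed in direction between runs. Klf5 was 70.5, 128 and 115 CPM in basal-like and 197, 60.9 and 75.6 CPM in luminal-like sums, and Foxq1 was 36.1, 62.3 and 88.2 against 88.9, 51.5 and 57.2 CPM. Gata3 (log2 -0.36, adjusted p = 0.337) and Grhl2 (log2 0.03, adjusted p = 0.886) did not pass, though Gata3 did without run 1 (adjusted p = 0.0101). Foxa2 had 0 or 1 UMI in the sum of all intact luminal-like or basal-like cells of every run and was too low to test, with an upper 95% limit of 0.441 CPM in run 1 luminal-like cells. The lobes and gates did not contribute equal numbers of cells to both classes, and their part in this comparison was not tested.

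**Figure D1:**
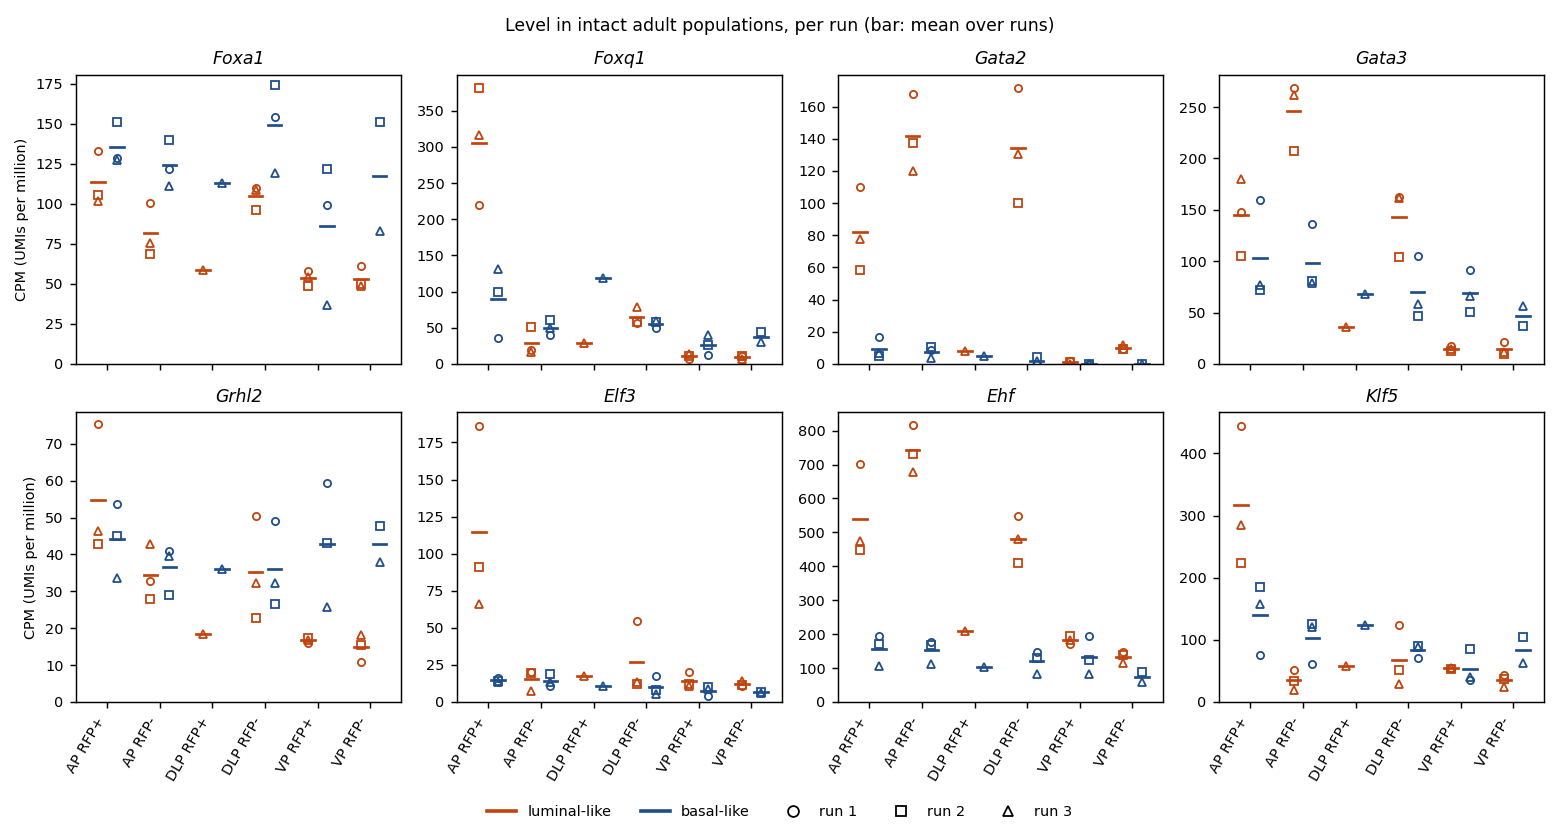
Levels of the 8 members found in the intact adult prostate, in CPM on linear axes, by lobe and RFP gate. Each symbol is the sum of 1 run (circle run 1, square run 2, triangle run 3), orange for luminal-like and blue for basal-like cells, and bars are means over runs. Klf5, Foxq1 and Elf3 stand highest in the AP RFP+ luminal-like sums, and luminal-like Gata2 is lowest in VP RFP+ at 0.285 to 1.78 CPM.

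Within AP luminal-like cells, the RFP gate separated the genes into a group that was higher in RFP+ cells, made of Foxq1, Klf5 and Elf3, and the GATA pair, which was lower. Foxq1 measured 220, 381 and 316 CPM in the RFP+ sums of runs 1 to 3 and 19, 51.4 and 17.1 CPM in the RFP- sums. Klf5 measured 445, 224 and 285 CPM against 51.6, 33.6 and 18.6 CPM. Elf3 measured 186, 91.1 and 66.1 CPM against 20.3, 19.3 and 7.15 CPM. In none of these 3 genes did the gates overlap. Foxq1 rose by a log2 fold change of 3.15 (SE 0.47, adjusted p = 0.0012), Klf5 by 3.00 (SE 0.30, adjusted p = 0.000157) and Elf3 by 2.56 (SE 0.36, adjusted p = 0.000887). These calls remained when any 1 run was left out.

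The GATA pair went down, by less. Gata3 measured 148.2, 105 and 180 CPM in RFP+ and 269, 208 and 262 CPM in RFP- sums, with a log2 fold change of -0.89 (SE 0.22, adjusted p = 0.0144). Gata2 measured 110, 58.7 and 77.7 CPM against 168, 138 and 120 CPM, with a log2 fold change of -0.94 (SE 0.19, adjusted p = 0.00497). The gates did not overlap for either gene. Both calls were lost without run 2 (adjusted p of 0.088 for Gata2 and 0.12 for Gata3), and that of Gata3 was lost without run 1 (adjusted p = 0.063). Both were also lost without TMM scaling (adjusted p of 0.0598 and 0.0597) and in cells with fewer than 7500 UMIs (adjusted p of 0.571 for Gata2 and 0.494 for Gata3).

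Ehf measured 700, 447 and 474 CPM in RFP+ and 816, 732 and 679 CPM in RFP- sums. Its log2 fold change of -0.61 (SE 0.20) stood at an adjusted p of 0.0505, and with run as a block it was 0.00354. Grhl2 measured 75.3, 42.8 and 46.4 CPM in RFP+ sums, on average 54.8 ± 17.8 (SD, n = 3), and 34.5 ± 7.68 CPM in RFP- sums. Its log2 difference of 0.57 had an adjusted p of 0.0811, and 0.031 with the block. Foxa1 measured 114 ± 17 CPM against 81.7 ± 16.8 CPM (log2 0.35, adjusted p = 0.161). In all, 5 of the 8 members tested passed, 3 higher and 2 lower, beside 25.4% of the 8679 genes tested, 13.6% higher and 11.8% lower. With run as a block, 7 of the 8 passed, 4 higher and 3 lower, beside 3197 of the 8679 genes.

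For Klf5 and Foxq1, shares of cells with a UMI were also taken. After each cell was thinned to 5000 UMIs, Klf5 was found in 79.4%, 76.6% and 68.1% of AP RFP+ luminal-like cells of runs 1 to 3 and in 11.6%, 10.9% and 3.7% of RFP- cells. Unthinned, the shares were 89.9%, 87.6% and 80.3% against 25%, 24.3% and 16.3%. Foxq1 was found in 50.6%, 64.9% and 52.1% of thinned RFP+ cells against 8.7%, 8.59% and 3.7%. Hematopoietic-like cells of the same AP RFP+ sort, in which free mRNA or doublets can be read, gave 12.9% and 7.01% for Klf5 and 0.00% and 2.55% for Foxq1 in runs 1 and 2. Their median depths were 7436 and 6513 UMIs against 12820 and 9618 in the luminal-like cells. This class was set by hematopoietic markers with no limit on epithelial genes. Run 3 held 2 such AP RFP+ cells, too few for a share. Its 15 hematopoietic-like cells of all intact sorts held Ehf in 80% and Foxa1 in 60%, unthinned. The Klf5 shares of thinned RFP- cells in runs 1 and 2 were near those of the hematopoietic-like cells, which should lack the gene apart from free mRNA and doublets. The Foxq1 shares of RFP- cells, 8.7% and 8.59%, were above the hematopoietic-like ones. Thinning left out 8, 12 and 18 RFP+ cells and 7, 12 and 16 RFP- cells that were shallower.

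Other markers moved with the AP gate. The summed level of 8 genes of proximal luminal cells, Runx1 among them, was 13980, 10340 and 11970 CPM in RFP+ and 1973, 623 and 27.2 CPM in RFP- sums. The 7 basal genes summed to 1098 to 2874 CPM in RFP+ and 294 to 489 CPM in RFP- luminal-like sums. In these luminal-like sums, Trp63 was at 0 in runs 2 and 3 of the RFP+ and runs 1 and 3 of the RFP- sort. The 10 hematopoietic genes summed to 26.3 to 66.1 CPM in RFP+ and 82.3 to 130 CPM in RFP- sums, with 2 to 7 and 4 to 8 of them at 0, and Ptprc and Cd3d at 0 in all 6 sums. The part of these cells in the differences was not tested.

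Relatives of the members, from lists of their families, are described by counts. In the AP gate comparison, 5 of 9 Krüppel-like relatives tested were higher in RFP+ cells (Klf3, Klf4, Klf7, Klf10 and Klf13) and Klf15 was lower, with a list median log2 of 0.83 against -0.01 over all genes. Of 5 forkhead relatives tested, Foxc1 and Foxp1 were higher (list median 1.1). Of 6 ETS relatives, Elf1 and Ets2 were higher and Elf5 and Spdef, both known from secretory epithelium, were lower (median 0.18). Neither of 2 GATA relatives and partners tested passed (median -0.11), and of 4 grainyhead relatives Tfcp2l1 was higher (median -0.03). Of 14 junction and splicing genes, Cdh1, Cldn7 and Cgn were higher and none was lower (median 0.43). In the comparison of basal-like with luminal-like cells, where 22.8% of all genes tested were higher and 21.8% lower in basal-like cells, 10 of these 14 junction and splicing genes were lower and Cldn4 and Cgn were higher (median -1.38, against 0.01 over all genes). Of 10 ETS relatives, 7 were higher and Elf5 and Spdef were lower (median 1.00). Foxc1, Foxo1, Foxo3 and Foxp1 were higher among 6 forkhead relatives tested (median 0.63), and Klf4, Klf6, Klf9 and Klf13 among 9 Krüppel-like relatives (median 0.87), with none lower in either list. Of 4 grainyhead relatives Grhl1 and Tfcp2l1 were lower (median -0.82), and of 2 GATA relatives and partners Zfpm1 was lower (median -0.10).

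The ventral lobe differed. There, Foxq1 measured 7.46, 10.7 and 14.3 CPM in RFP+ and 10.8, 11.7 and 6.57 CPM in RFP- luminal-like sums, and Elf3 measured 19.9, 12.1 and 11.0 against 10.8, 11.3 and 14.0 CPM, so that the gates overlapped. Klf5 measured 54.7, 53.6 and 54.9 CPM against 43.3, 37.5 and 24.7 CPM, without overlap, and its log2 fold change was 0.65 (SE 0.18, adjusted p = 0.373). Ehf, also without overlap, measured 169, 194 and 182 CPM against 146, 139 and 116 CPM (log2 0.44, adjusted p = 0.741). Foxa1 (log2 0.01), Gata3 (log2 0.22) and Grhl2 (log2 0.10) had adjusted p-values of 0.986 and above. Gata2 was the only member past the threshold, with 1.78, 1.1 and 0.285 CPM in RFP+ sums, made of 5, 10 and 2 UMIs, and 9.02, 9.54 and 11.5 CPM in RFP- sums, made of 5, 27 and 14 UMIs. Its log2 fold change was -3.44 (SE 0.48, adjusted p = 0.0202), beside 0.380% of the 7894 genes tested. The call was lost without run 2 (adjusted p = 0.609), without run 3 (adjusted p = 0.453) and without the 5% of cells with the most UMIs (adjusted p = 0.0652). The run 1 VP RFP- sum held 10 cells.

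The difference between the lobes in the effect of the gate was tested as an interaction over the 12 AP and VP sums. It passed for Foxq1 (log2 2.96, SE 0.68, adjusted p = 0.0229), Klf5 (log2 2.35, SE 0.35, adjusted p = 0.00243) and Elf3 (log2 2.42, SE 0.53, adjusted p = 0.0192), all with a larger RFP+ to RFP- ratio in AP. It also passed for Gata2 (log2 2.51, SE 0.46, adjusted p = 0.00709), which was lower in RFP+ cells of both lobes and by more in VP, and for Ehf (log2 -1.05, SE 0.25, adjusted p = 0.025), whose ratio was lower in AP. These are 5 of 8 members beside 5.48% of the 9607 genes tested. Gata3 (log2 -1.11) had an adjusted p of 0.0901, and 0.0117 with run as a block. Foxa1 (log2 0.34, adjusted p = 0.42) and Grhl2 (log2 0.49, adjusted p = 0.482) did not pass. No member passed without run 2, and 1 passed without run 3. Runx1 itself differed less between the VP gates, at 17, 15 and 21 CPM in RFP+ and 11, 6 and 4 CPM in RFP- sums, and the proximal luminal genes summed to 973, 269 and 389 CPM against 460, 73.5 and 102 CPM there. The part of these differences in the interaction was not tested.

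**Figure D2:**
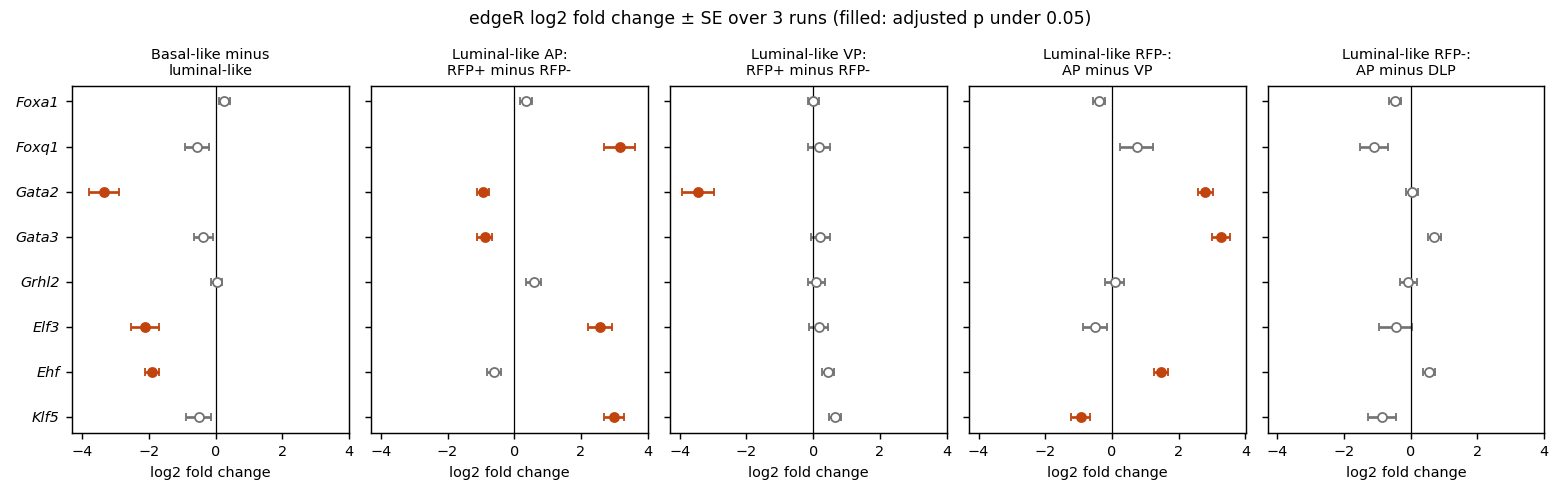
Log2 fold changes of 8 members in 5 replicated comparisons, the first group named minus the second, with bars of 1 standard error over 3 runs, from edgeR on TMM-scaled sums. Filled points passed an adjusted p of 0.05. Foxq1, Klf5 and Elf3 lie to the right in the AP gate comparison (3.15, 3.00 and 2.56), and Gata2 lies to the left in both gate comparisons.

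Among RFP- luminal-like cells, the 2 GATA genes and Ehf were higher in the anterior than in the ventral lobe. Gata3 measured 269, 208 and 262 CPM in AP and 21.6, 9.54 and 11.5 CPM in VP sums, with a log2 fold change of 3.27 (SE 0.28, adjusted p = 7.1e-05). Gata2 measured 168, 138 and 120 CPM against 9.02, 9.54 and 11.5 CPM (log2 2.80, SE 0.23, adjusted p = 5.7e-05), and Ehf 816, 732 and 679 CPM against 146, 139 and 116 CPM (log2 1.48, SE 0.21, adjusted p = 0.00122). For all 3 genes every AP sum was above every VP sum. They stand beside 16.0% of the 7122 genes tested, 7.75% higher and 8.24% lower in AP.

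For the other members the answer depended on the scaling. In the VP RFP- luminal-like sums the 50 most abundant genes took 65.9% to 66.1% of the UMIs, against 31.6% to 40.3% in AP, and TMM lowered the AP to VP log2 fold changes by 1.00 against plain CPM. Klf5 measured 51.6, 33.6 and 18.6 CPM in AP and 43.3, 37.5 and 24.7 CPM in VP, and was called lower in AP under TMM (log2 -0.94, SE 0.28, adjusted p = 0.0413) but was at 0.06 without it (adjusted p = 0.876). The call was also lost without run 2 (adjusted p = 0.246) and without run 3 (adjusted p = 0.0731). Foxa1 turned from -0.38 (adjusted p = 0.192) to 0.63 (adjusted p = 0.0313). Without TMM, Foxq1 (log2 1.67, adjusted p = 0.00556) and Grhl2 (log2 1.11, adjusted p = 0.00658) passed as higher in AP as well, while under TMM they stood at 0.74 (adjusted p = 0.352) and 0.08 (adjusted p = 0.895). Elf3 did not pass under TMM (log2 -0.50, adjusted p = 0.384). Without TMM the whole set of genes split into 4811 higher and 176 lower.

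In the dorsolateral lobe too, the GATA pair and Ehf of RFP- luminal-like cells stood above all VP RFP- values on the plain CPM scale. In DLP RFP- luminal-like sums, Gata2 measured 171, 99.9 and 131 CPM, Gata3 163, 104 and 161 CPM, and Ehf 549, 410 and 480 CPM. Foxq1 measured 57.1, 57.5 and 78.1 CPM there, above the 3 AP values, and Klf5 measured 123, 50.7 and 29.3 CPM. No member passed in AP against DLP by edgeR or DESeq2, beside 0.938% of 7673 genes called by edgeR. In each, 4 members had an unadjusted p under 0.05, as did 785 of the 7673 genes by edgeR and 613 of 9580 by DESeq2. Foxa1 (log2 -0.47), Grhl2 (log2 -0.07), Elf3 (log2 -0.45) and Gata2 (log2 0.03) had adjusted p-values of 0.383 to 0.990. With run as a block, which pairs the lobes of the same mice, 4 members passed: Gata3 (log2 0.72, adjusted p = 0.0017) and Ehf (log2 0.55, adjusted p = 0.00312) higher in AP, and Klf5 (log2 -0.97, adjusted p = 0.00428) and Foxq1 (log2 -1.05, adjusted p = 0.0258) higher in DLP. The block raised the genes called from 72 to 562. The single DLP RFP+ luminal-like sum, from run 3, held 28.9 CPM of Foxq1, 7.81 CPM of Gata2, 36.3 CPM of Gata3 and 209 CPM of Ehf. The RFP- sum of that run held more of each, at 78.1, 131, 161 and 480 CPM. Klf5 stood the other way, at 57.7 CPM in RFP+ and 29.3 CPM in RFP-. Both sums came from 64 cells, with 2944172 UMIs in RFP+ and 1331745 in RFP-, and the difference was not tested.

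Ordered by mean level over the 3 runs on the plain CPM scale, which is not corrected by TMM, luminal-like Foxq1 ran from AP RFP+ (306 ± 81 CPM) through DLP RFP- (64.2 ± 12) and AP RFP- (29.2 ± 19.3) to the VP sums (10.8 ± 3.4 in RFP+ and 9.68 ± 2.73 in RFP-), and only the 2 VP groups overlapped. Klf5 ran from AP RFP+ (318 ± 114 CPM) through DLP RFP- (67.7 ± 49.1) and VP RFP+ (54.4 ± 0.727) to VP RFP- (35.1 ± 9.53) and AP RFP- (34.6 ± 16.6), and below AP RFP+ the ranges of neighbours overlapped except between the 2 VP groups. Foxa1 stood at 114 ± 17 CPM in AP RFP+, 105 ± 7.63 in DLP RFP-, 81.7 ± 16.8 in AP RFP-, 53.7 ± 4.95 in VP RFP+ and 53.3 ± 6.97 in VP RFP- sums, and its order of AP RFP- and VP RFP- turned under TMM, as given above.

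In basal-like cells the gate gave no such separation. Foxq1 measured 36.1, 99.7 and 132 CPM in AP RFP+ and 39.8, 60.8 and 50.2 CPM in AP RFP- sums (log2 0.85, SE 0.49). Klf5 measured 75.8, 185 and 157 CPM against 60.2, 126 and 121 CPM (log2 0.43, SE 0.44). The log2 fold changes of the other 6 members tested lay between 0.00 and 0.47. None of the 8 members and 0.00% of 8456 genes passed by edgeR, which gave 89 genes and no member an unadjusted p under 0.05, and DESeq2 called no gene either. With run as a block 6 genes passed, no member among them, and Foxq1 and Klf5 had an unadjusted p of 0.00124 each. In run 3 the AP RFP+ sum included 33 basal-like cells of a cluster led by genes of mesonephric derivatives, and with classes taken from clusters the count of members was still 0.

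Between lobes, RFP+ basal-like cells held more Foxq1 and Klf5 in AP than in VP in each run. Foxq1 was 36.1, 99.7 and 132 CPM in AP and 11.9, 26.7 and 40.0 CPM in VP, and Klf5 was 75.8, 185 and 157 CPM against 35.7, 85.0 and 40.0 CPM. Across runs the lobes overlapped for both genes. Neither passed in the unpaired test (Foxq1 log2 1.71, SE 0.59, adjusted p = 0.406, Klf5 log2 1.26, SE 0.43, adjusted p = 0.4), where 0.330% of 7579 genes passed. There 2 of 7 members tested and 605 of the 7579 genes had an unadjusted p under 0.05, and DESeq2 called no member. With the runs as blocks both passed, Foxq1 at 1.77 (adjusted p = 1.64e-05) and Klf5 at 1.32 (adjusted p = 5.07e-05), and the genes called rose from 25 to 492. Foxq1 also passed without run 1 (adjusted p = 0.0348). Gata2 had 0 UMIs in every intact VP basal-like sum and 5.17 to 16.8 CPM in the AP RFP+ sums. The low-count filter left it out of this test, and it passed as higher in AP without that filter (adjusted p = 0.00176) and with all intact sums in 1 fit (adjusted p = 0.0318). The other members tested (Foxa1, Gata3, Grhl2, Elf3 and Ehf) had log2 fold changes of 0.04 to 0.73 and adjusted p-values of 0.699 and above.

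Castrated and intact cells of the same lobe and gate could be compared within run 2 alone, so the values below compare 1 pool of each and carry no test. The ratio is a log2 ratio of TMM-scaled levels with a 95% interval for counting error only. A gene counts as past 2-fold by that ratio. The classes were made of different clusters before and after castration. Of 523 castrated luminal-like cells in run 2, 247 lay in a cluster led by Pnliprp1, 106 in one led by Ang5 and 68 in one led by Clca3a2, which held 2, 2 and 1 of the 538 intact ones, while 255 and 153 intact cells lay in clusters led by Spink5 and Gm37223 with 48 and 8 castrated cells. The Clca3a2 cluster had Pate4, Wfdc15b, Svs5 and Svs4 among its top genes, as did a run 3 cluster named mesonephric-like. Its 68 cells were kept in the castrated luminal-like sums. Of 294 castrated basal-like cells, 191 lay in a cluster led by Krt17 with 10 of 368 intact cells, and 296 intact cells lay in one led by Lgals7 with 34 castrated cells. The part of these clusters in the ratios was not tested. Foxq1 was over 2-fold higher in the castrated sum in 5 of 6 populations. In VP RFP+ luminal-like cells it stood at 163 CPM castrated and 10.7 CPM intact (log2 3.05, 2.73 to 3.38), in AP RFP- at 187 and 51.4 CPM (log2 2.07, 1.75 to 2.38), and in DLP RFP- at 176 and 57.5 CPM (log2 1.87, 1.41 to 2.33). In AP RFP+ luminal-like cells, where the intact level was already 381 CPM, it was 426 CPM (log2 0.05, -0.09 to 0.20). In basal-like cells it stood at 485 and 99.7 CPM in AP RFP+ (log2 2.51, 2.24 to 2.79) and at 177 and 26.7 CPM in VP RFP+ (log2 2.95, 2.23 to 3.73).

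Klf5 was higher in castrated RFP- luminal-like cells, at 87.5 against 33.6 CPM in AP (log2 1.59, 1.16 to 2.01) and 108 against 50.7 CPM in DLP (log2 1.35, 0.80 to 1.89), and it was 0.88 higher in VP RFP+ cells (0.69 to 1.07). In AP RFP+ luminal-like and both basal-like populations its interval included 0. Ehf was lower in the castrated AP RFP- luminal-like sum, at 219 against 732 CPM (log2 -1.53, -1.74 to -1.33), and in DLP RFP-, at 158 against 410 CPM (log2 -1.12, -1.49 to -0.78). In VP RFP+ it was 314 against 194 CPM, but -0.18 (-0.31 to -0.06) after TMM. On the plain CPM scale the median ratio of all genes in that population was 0.87.

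The GATA pair differed in sign between these populations. Gata2 was lower in castrated AP RFP- cells, at 52.7 against 138 CPM (log2 -1.18, -1.63 to -0.75), and higher in VP RFP+ cells, at 12.3 against 1.1 CPM, from 30 and 10 UMIs (log2 2.62, 1.55 to 3.82). Gata3 was lower in AP RFP-, at 64.3 against 208 CPM (log2 -1.48, -1.89 to -1.11), and higher in VP RFP+, at 78.6 against 12.8 CPM (log2 1.74, 1.40 to 2.08). The difference between these populations was not tested. Elf3 and Grhl2 were lower in castrated AP RFP+ luminal-like cells, at 39.2 against 91.1 CPM (log2 -1.33, -1.69 to -0.96) and 19.1 against 42.8 CPM (log2 -1.27, -1.81 to -0.74). In basal-like cells Elf3 was higher, at 26.6 against 14.0 CPM in AP RFP+ (log2 1.15, 0.31 to 2.03) and, from 12 and 8 UMIs, at 30.8 against 10.2 CPM in VP RFP+ (log2 1.82, 0.41 to 3.32).

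Of the members compared, the number past 2-fold was 2 of 8 in AP RFP+, 5 of 8 in AP RFP-, 3 of 8 in DLP RFP- and 3 of 8 in VP RFP+ luminal-like cells, against 17.1%, 18.9%, 15.1% and 18.0% of all genes. In basal-like cells Foxq1, Gata2 and Elf3 in AP RFP+ and Foxq1 and Elf3 in VP RFP+ were past it, against 10.8% and 15.9% of all genes, and the Gata2 ratio rests on 19 and 7 UMIs. The castrated DLP RFP+ luminal-like sum of 137 cells had no intact partner in run 2 and held 634 CPM of Foxq1 and 295 CPM of Klf5. Proximal luminal genes summed to 4384 CPM in castrated AP RFP+ and 712 CPM in castrated AP RFP- luminal-like cells, against 10340 and 623 CPM in the intact sums of run 2. Their part in the ratios was not tested.

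**Figure D3:**
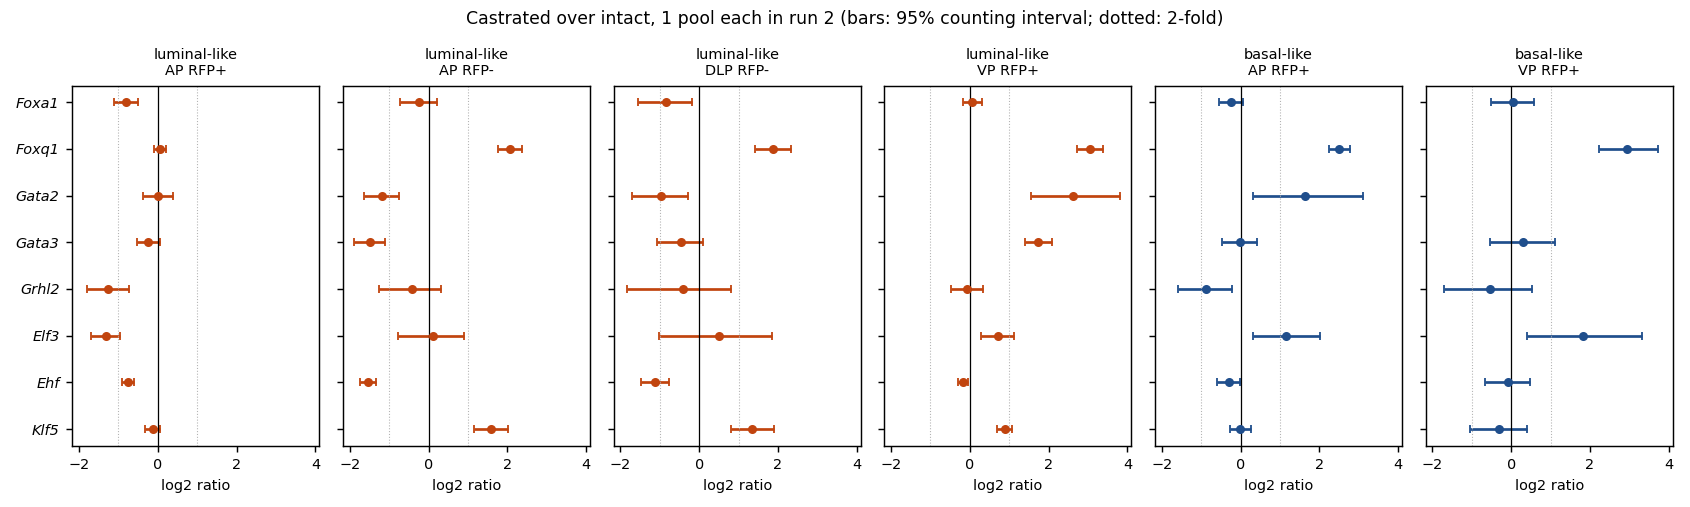
Log2 ratio of castrated to intact levels within run 2 for 6 populations (luminal-like orange, basal-like blue), after TMM scaling, with bars for the 95% counting interval and dotted lines at 2-fold. Foxq1 lies beyond 2-fold in every population except AP RFP+ luminal-like cells, where it is 0.05. Gata2 has no point in basal-like VP RFP+ cells, where the intact sum held 0 UMIs.

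Among the intact sums, the likeness of patterns was taken as the Pearson correlation of log2(CPM + 1) over 31 sums and 4798 genes, and is a description, since sums of 1 run share mice and library. Apart from the members, genes of the marker lists and genes with a mean under 20 CPM were left out. The CPM values were not corrected by TMM. The most alike genes were Mark3 (0.927) and Chd2 (0.898) for Foxa1, Afdn and Far1 (both 0.865) for Foxq1, Plac8 (0.955) and Mal (0.930) for Gata2, and Sord and Mgat4b (both 0.943) for Gata3. They were Fam129b (0.919) and Magi1 (0.916) for Grhl2, Atp6ap2 (0.915) and Gsta4 (0.908) for Elf3, Alcam (0.946) and Tor1b (0.933) for Ehf, and Arl4a (0.910) and Kdm7a (0.846) for Klf5. Between the 8 members other than Foxa2 the closest pair was Gata2 and Ehf (0.865), followed by Foxq1 and Klf5 (0.778), and the least alike was Ehf and Klf5 (0.0333).

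In the explants, most members were lower in prostatic-like cells at day 6 than at day 0, and Ehf and Grhl2 changed least. These cells, 469, 479, 993 and 1947 at days 0, 1, 3 and 6, came from clusters named by Hoxb13 and Hoxd13. Each day is 1 pool, so ratios have counting intervals and no test. A cluster high in hypoxia genes was left out, though its Hoxb13 and Hoxd13 level of 0.74 per 10000 UMIs was above the limit of 0.4. It held 1, 130, 57 and 108 cells of days 0, 1, 3 and 6, and its part in the ratios was not tested. Klf5 stood at 423, 325, 170 and 145 CPM over the 4 days (log2 day 6 to day 0 of -1.40, -1.46 to -1.34), and Foxq1 at 126, 119, 72.2 and 37.2 CPM (log2 -1.61, -1.72 to -1.49). Foxa2, at 0 or 1 UMI in the adult sums above, stood here at 41.1, 17.5, 23.6 and 11.6 CPM (log2 -1.68, -1.89 to -1.48), and it was already lower at day 1 (log2 -1.20, -1.44 to -0.95). Gata2 stood at 25.7, 12.7, 9.70 and 4.11 CPM (log2 -2.50, -2.81 to -2.19), the largest ratio of the 9.

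Elf3 had a peak at day 1, with 65.2, 98.8, 45.2 and 19.7 CPM, and was 0.64 higher at day 1 than at day 0 (0.50 to 0.77) and 1.58 lower at day 6 than at day 0 (log2 -1.58, -1.73 to -1.42). Foxa1 stood at 104, 71.5, 54.8 and 48.0 CPM (log2 -0.97, -1.08 to -0.85) and Gata3 at 202, 144, 109 and 98.2 CPM (log2 -0.89, -0.97 to -0.81), both short of 2-fold. Ehf went from 132 to 107 CPM (log2 -0.15, -0.24 to -0.06) and Grhl2 from 51.0 to 43.4 CPM (log2 -0.08, -0.22 to 0.06). In all, 5 of 9 members were past 2-fold at day 6 against day 0, all lower, beside 18.1% of 13174 genes past it and 8.71% lower. Between neighbouring days 1 of 9 was past 2-fold at day 1 (Foxa2, beside 7.26% of genes) and at day 3 (Elf3, log2 -1.04, beside 7.00%). At day 6 against day 3, 2 were past it (Gata2, log2 -1.21, and Elf3, log2 -1.17, beside 5.76%). Over all assigned cells, Gata2 and not Foxa2 was past 2-fold at day 1, and no member at day 3. At day 6 against day 3, Foxa2 then took the place of Gata2.

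**Figure D4:**
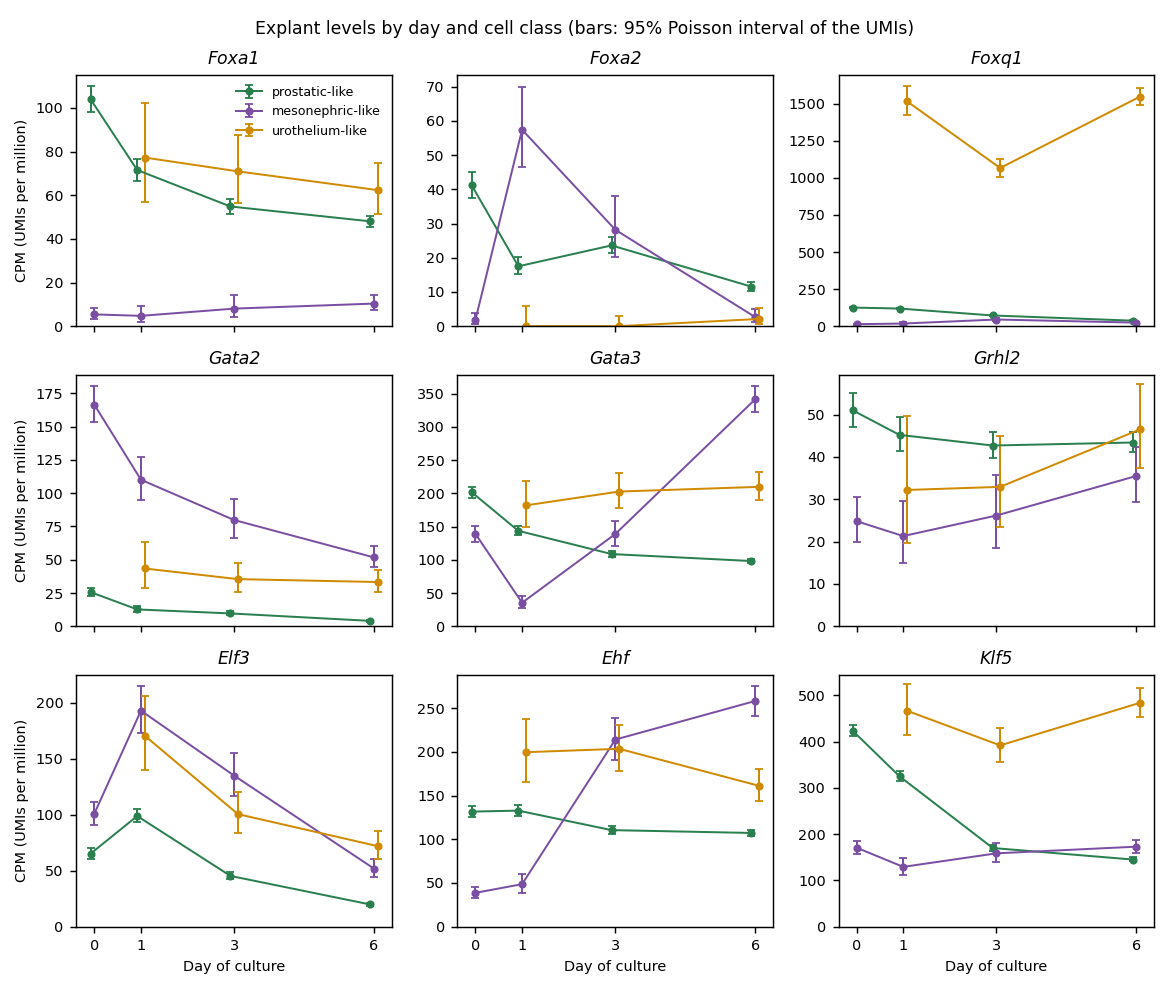
Levels of the 9 genes in explant cells, in CPM on linear axes, against the day of culture (0, 1, 3 and 6) for prostatic-like, mesonephric-like and urothelium-like cells, with bars for the 95% Poisson interval. In prostatic-like cells Klf5 goes from 423 to 145 CPM and Foxq1 from 126 to 37.2 CPM, while urothelium-like cells, too few at day 0 for a point, hold 1067 to 1548 CPM of Foxq1.

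The Foxq1 pattern depended on the cell class. Urothelium-like cells, named by their uroplakin genes, held 1516, 1067 and 1548 CPM of Foxq1 at days 1, 3 and 6 and 467, 392 and 484 CPM of Klf5. Their number went from 5 at day 0 through 31 and 60 to 117 at day 6, and over all assigned cells the Foxq1 ratio of day 6 to day 0 turned to 0.29. Within prostatic-like cells the 7 urothelial genes summed to 622, 567, 335 and 210 CPM over the days. Different clusters also made up the prostatic-like class: 369 of 469 day 0 cells were in 1 cluster, 215 of 479 day 1 cells in another, and 605 of 1947 day 6 cells in a cluster with no day 0 cell.

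Mesonephric-like cells, named by Pax2, Pax8 and Hoxb7, differed from prostatic-like cells in the levels of some members. Foxa1 was at most 10.4 CPM in them, and Gata2 stood at 166, 110, 79.8 and 51.8 CPM over the 4 days. Klf5 was found, unthinned, in 83.5%, 78.9%, 75% and 70% of them and in 97%, 94.6%, 77% and 67.7% of prostatic-like cells. Mesonephric-like cells also held Elf3, in 37.4% to 84.4% of cells by day, and Grhl2, in 30% to 36.1%. Gata3 stood at 139, 35.5, 139 and 341 CPM and Ehf at 38.6, 48.5, 214 and 258 CPM, so that both were highest at day 6. Foxa2 was 1.9 CPM at day 0, 57.4 CPM at day 1 and 2.7 CPM at day 6. The class had 194, 90, 88 and 273 cells, and 222 of the day 6 cells were in a cluster with no day 0 or day 1 cell, so the days compare different clusters. Mesenchyme-like cells, which should lack most of these epithelial factors, held 84.8 to 116 CPM of Gata2 and at most 14.1 CPM of Foxa1.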

How the data were processed

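EPCAM+ cells of 3 adult runs and 1 explant library were profiled by 3′ droplet RNA sequencing. The deposited files hold raw UMI counts per gene and cell, which the authors made with Cell Ranger 3.1.0 on mm10 (GRCm38), and raw counts of the MULTI-seq barcodes that mark sorted populations. Adult cells over 750 and under 7500 detected genes and under 10% mitochondrial UMIs were kept. Explant cells were kept over 1000 genes, with no upper limit, and under 7.5% mitochondrial UMIs. The study's methods word the limit of 7500 in UMIs for the adult runs, which was run as an alternative. Kept cells with 1 barcode above the study's thresholds were assigned, while 326, 962, 452 and 823 cells with several barcodes were removed. In run 3 the barcodes listed for VP RFP+ and VP RFP- cells differ from those within the oligos listed beside them, and the listed population names were used. No doublet caller was run. Of the barcodes, 0 to 6 were shared between libraries. Adult classes came from limits on marker genes and explant classes from clusters. The markers were set first, and the limits after values were seen.

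UMIs were summed per run, population and class, with at least 10 cells. edgeR 4.0.16 in R 4.3.3 (TMM, filterByExpr, glmQLFit, glmQLFTest) tested all genes and p-values were adjusted by Benjamini-Hochberg over them, with 0.05 as the limit. An SE is the size of a fold change (log2) over √F. DESeq2 1.42.0 was an alternative. Ratios without replicates used genes with at least 20 UMIs over the 2 sums, with exact Poisson and binomial 95% intervals, which cover counting error only. The code was tested on simulated data. Runs pair the samples because a run is 1 pool of mice, and in 21 same-run pairs the deviations from group means correlated at 0.123 to 0.717. The members, their family lists and the comparisons were chosen with earlier results of these data known. The 9 members were to be named in every replicated comparison, with listed relatives given as counts, by name where 5 or fewer passed (here in 2 comparisons), and the 2 genes most alike to each member. Some alternatives named in the closing section, those with total UMIs as library sizes, were chosen after seeing the data. Coordinates are from GENCODE vM21 and promoters from RefSeq. A shared-exon or paralog read counted by Cell Ranger to no single gene is lost, and the kit counts 3′ ends. A list of partner factors is not reported here.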

Additional observations from a re-analysis of the deposited data

Results flagged for a closer look

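The RFP+ to RFP- fold change of luminal-like cells differed between the anterior and ventral lobes for 5 members by the interaction test of edgeR. The AP minus VP difference in log2 fold change was 2.96 for Foxq1, 2.51 for Gata2, 2.42 for Elf3, -1.05 for Ehf and 2.35 for Klf5. The Gata2 difference rests on 5, 10 and 2 UMIs in the VP RFP+ sums. Without run 2 none of the 5 passed, and without run 3 only Klf5 did.

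After castration, Gata2 was lower in AP RFP- luminal-like cells (log2 -1.18) and higher in VP RFP+ luminal-like cells (log2 2.62). Gata3 was likewise lower in AP RFP- cells (log2 -1.48) and higher in VP RFP+ cells (log2 1.74). These are 1 castrated and 1 intact pool of run 2 each, the gates differ as well as the lobes, and the differences were not tested.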

How the results depend on the processing

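The counts of members that passed moved by over 1.5 times under the following settings. With cells under 7500 UMIs, basal-like against luminal-like cells gave 5 in place of 3, the AP gate 3 in place of 5, and castrated against intact cells 0 in place of 2 (luminal-like AP RFP+) and 1 in place of 2 (basal-like VP RFP+). That limit left too few cells for a value in the VP gate, AP against VP RFP- and interaction comparisons. With total UMIs as library sizes and no TMM, the AP gate gave 3, Foxa1 and Klf5 in AP against VP turned to 0.63 and 0.058, castrated DLP RFP- and VP RFP+ luminal-like cells gave 5 each in place of 3, and day 1 against day 0 gave 2 in place of 1, as it did without the 50 most abundant genes. Leaving out 1 run gave 3 to 5 in the AP gate, 0 to 1 in the VP gate, 0 to 5 in the interaction and 0 to 1 in basal-like RFP+ AP against VP. The VP gate also gave 0 without the 5% of cells with the most UMIs. Without a low-count filter AP against DLP gave 1 and basal-like AP against VP 3, and all sums in 1 fit gave 1 in the latter. With run as a replicate block, AP against DLP gave 4 in place of 0 and basal-like AP against VP 2 in place of 0. The block also brought Ehf and Grhl2 in the AP gate and Gata3 in the interaction past the threshold, and it ended no call. With all assigned explant cells, day 3 against day 1 gave 0, day 6 against day 0 gave 3 in place of 5, and Foxq1 turned to 0.29. The cause of these shifts was not tested. Of 137 alternative values of these counts, 114 stayed within 1.5 times. Of the alternative values of single genes, 972 kept their side of the threshold or, where untested, stayed within their interval. Of the rest, 24 came past the threshold, 26 fell back from it, 54 untested ones moved beyond their interval and 3 turned sign. A turn of sign was not counted where a gene passed in neither setting or where its untested ratio was short of 2-fold. Depth limits Gata2 in VP cells and Foxa2 in all adult cells, which had 0 or few UMIs.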
